A study of Mus musculus with 40 samples.

Results

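The genes described here encode the nuclear-encoded subunits of respiratory complexes I to IV together with cytochrome c. They were taken by gene symbol from a fixed list, which was chosen with earlier results of these data known. All 59 listed genes were found among the 54331 genes of the deposited table. Complex I holds 36 of them, complex II 3, complex III 9 and complex IV 10, and Cycs encodes cytochrome c. All 59 passed the filter on low values.

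The RNA came from the cerebellum of male C57BL6 mice, and it was depleted of ribosomal RNA before sequencing. The labels cross 4 genotypes, WT, INDY, CSB and DKO, with 2 diets, the standard one (SD) and a ketogenic one (KD) that is rich in fat and poor in carbohydrate. INDY is a name of Slc13a5, a citrate transporter of the plasma membrane, and CSB is the protein of Ercc6, which acts in transcription-coupled DNA repair. There were 4 libraries of WT SD, 4 of WT KD, 6 of INDY SD, 6 of INDY KD, 6 of CSB SD, 5 of CSB KD, 4 of DKO SD and 5 of DKO KD. Ages, alleles and the length of feeding are not given in the sources used here. The labels do not say that libraries came from separate animals, so the p-values below measure the spread between libraries.

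Complexes I and II pass electrons from NADH and succinate to ubiquinone, complex III passes them to cytochrome c, and complex IV passes them to oxygen. Complexes I, III and IV pump protons, and ATP synthase uses the resulting gradient. Each of these 3 proton pumps joins subunits encoded in mitochondrial DNA, of which complex III has only cytochrome b, with others encoded in the nucleus, whereas complex II is encoded in the nucleus alone. Neurons of the cerebellum depend on this chain for the ATP that restores ion gradients after firing.

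Values are read counts estimated and normalised by the authors, so the sequencing depth of a library is unknown. A level below is the value itself or log2(value + 1), and a difference is between group means of log2(value + 1). Differences were tested with limma over 21367 genes in 1 fit of all 40 libraries, and a gene was called at a Benjamini-Hochberg adjusted p under 0.05. In bulk tissue, fewer cells of a type and less RNA per cell cannot be told apart.

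The labels were checked against the 2 genotype genes. Slc13a5 lay between 82.1 and 161 in the WT and CSB libraries, and it was 0 or at most 0.934 in the INDY and DKO libraries. Ercc6 lay between 382 and 695 in the CSB libraries, so part of its RNA was still counted there. The library labelled WT KD 25 had an Ercc6 value of 633, inside that range and below the other WT KD libraries at 766 to 899. The library labelled DKO KD 23 had 876, above the other DKO KD libraries at 470 to 639. Cerebellar markers were present but uneven: the 12 granule cell markers had a mean log2 level of 12.11 ± 0.32 (SD over the 4 libraries) in WT SD. In DKO SD it was 10.68 ± 1.80 over 4 libraries, of which DKO SD 1 stood at 8.10. A forebrain list of 16 genes stood at 5.25 ± 0.12 in WT SD and at 7.29 ± 2.41 in DKO SD, where it reached 10.29 in DKO SD 1 and 8.17 in DKO SD 35. It was above 6.5, a limit set with the values in view, in 12 libraries that include 3 of the 4 WT KD libraries. A liver list of 13 genes ranged from 1.31 to 9.45. The comparisons of DKO and INDY with WT on SD, of DKO with INDY on KD, of genotypes with WT on KD and of diets are also given without these 12 libraries.

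Per kilobase of transcript, complex IV genes had the highest levels. The mean over the 40 libraries ran from 2761 to 9872 per kilobase for the 10 complex IV genes, with a median of 4428, and the medians were 2499 for complex III, 1626 for complex I and 995 for complex II. Cox4i1, which encodes the largest nuclear subunit of complex IV, was the highest at 9872 per kilobase. Ndufab1, the mitochondrial acyl carrier protein that also serves as a complex I subunit, was the lowest at 350.1 per kilobase. These levels use the length of 1 principal transcript per gene, which for Ndufab1 is 3479 bases, so they depend on that choice of transcript.

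For subunits with alternative isoforms, the form common to most tissues was the abundant one. Cox4i1 stood at 9872 per kilobase against 34.9 for Cox4i2, an isoform best known from lung. Cox6a1 stood at 4454 against 22.4 for Cox6a2, the heart and muscle form. Cox8a stood at 7409 against 41.5 for Cox8b, and Cox7a2 at 4403 against 161 for Cox7a1. Cox6b1 stood at 6305 against 43.0 for the testis form Cox6b2, and Ndufa4 at 5736 against 26.3 for Ndufa4l2. Ndufa4 is listed here with complex I, and its protein is now counted with complex IV.

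The spread of each member over all libraries was also described. The ratio of the highest to the lowest of the 40 library values had a median of 2.02 over the members. It was smallest for Ndufs1, the large iron-sulphur subunit of complex I, at 1.40, and largest for Ndufc1, an accessory complex I subunit, at 2.84.

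Some values can hold reads of other genes. Transcripts with at least 95% identity over at least 50% of their length were annotated for 8 members (Cox7c, Ndufa12, Ndufab1, Ndufb11, Ndufs3, Ndufs5, Ndufs6 and Uqcrb), and these copies held at most 1.39% of the summed value, for Ndufab1. The spans of 14 members overlapped a gene on the opposite strand with a mean value of at least 10, among them Ndufs1 (with Eef1b2), Cox4i1 (with Emc8), Ndufb2 (with Braf) and Cox6c (with Vps13b). Whether strand was used in counting is not given in the sources used here, so the values of these members are uncertain to that extent.

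Promoter windows of 250 bases before to 50 bases after the RefSeq start were matched for 49 of the 59 members. Uqcr11 is shown because it had the largest difference between DKO and WT on SD, and Cycs as the gene of cytochrome c. Cox6a1 and Ndufa11 are shown because their windows hold NRF1 letters, so the 4 are examples and carry no information on how common a match is. They are printed 5′ to 3′ on the strand of the gene, from RefSeq on GRCm38.p6, and only the bases upstream of the annotated gene are shown. Capitals mark matches, on either strand, to the motifs searched, where they lie within the printed bases. The full windows also hold the shorter NRF1 core described below in Uqcr11, ETS letters in Cox6a1 and SP1 letters in Cycs.

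Uqcr11, chr10:80406831-80407071, minus strand: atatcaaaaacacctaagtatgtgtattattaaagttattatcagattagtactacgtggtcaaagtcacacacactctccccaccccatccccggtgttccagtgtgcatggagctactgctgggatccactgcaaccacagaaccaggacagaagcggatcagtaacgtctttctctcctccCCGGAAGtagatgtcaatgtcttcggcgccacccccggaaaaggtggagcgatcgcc
Cox6a1, chr5:115348982-115349208, minus strand: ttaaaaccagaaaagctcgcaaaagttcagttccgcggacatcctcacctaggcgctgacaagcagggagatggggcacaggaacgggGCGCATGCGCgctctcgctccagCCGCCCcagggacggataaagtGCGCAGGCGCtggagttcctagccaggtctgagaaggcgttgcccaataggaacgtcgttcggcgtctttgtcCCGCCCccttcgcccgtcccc
Ndufa11, chr17:56717512-56717761, plus strand: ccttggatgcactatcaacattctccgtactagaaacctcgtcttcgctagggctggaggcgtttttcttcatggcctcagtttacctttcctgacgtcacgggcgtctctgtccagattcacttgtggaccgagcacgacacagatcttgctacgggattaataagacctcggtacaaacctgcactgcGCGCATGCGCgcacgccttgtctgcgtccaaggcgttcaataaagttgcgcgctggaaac
Cycs, chr6:50566570-50566819, minus strand: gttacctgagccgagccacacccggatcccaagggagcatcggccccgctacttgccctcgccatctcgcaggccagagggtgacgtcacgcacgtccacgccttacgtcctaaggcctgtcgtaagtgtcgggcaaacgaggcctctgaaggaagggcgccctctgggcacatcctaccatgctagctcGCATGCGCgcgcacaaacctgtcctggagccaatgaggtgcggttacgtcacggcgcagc

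NRF1, ETS factors of the NRF2 (GABP) type, YY1 and ERR are transcription factors known for respiratory genes. The longer NRF1 letters are those of the capitals in the Ndufa11 window, with any base allowed at the middle A, and they occurred in the windows of 20.4% of the matched members and 5.19% of all 27025 genes in the promoter table. In the printed bases of Cox6a1 they occur 2 times and in those of Ndufa11 1 time. A shorter NRF1 core, GCATGCGC, was added after the Cycs window was seen without a match to the longer letters, and it occurred in 16.3% of members and 3.05% of all genes. The shorter core can lie inside the longer letters, as it does in Cox6a1 and Ndufa11. The ETS letters CCGGAAG, marked in Uqcr11, occurred in 22.4% of members and 9.93% of all genes, and the YY1 letters AANATGGCG in 14.3% and 2.76%. For SP1 (GGGCGG) the shares were 42.9% and 38.2%, for ERR (TNAAGGTCA) 4.08% and 1.43%, and for TATAAA 8.16% and 15.7%. A match is a description of letters and not of a bound site.

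No member was called by limma in any of the 18 comparisons. The mean log2 level over the 59 members was lowest in WT SD, at 10.64 ± 0.12 (SD, n = 4), and highest in DKO KD, at 10.97 ± 0.11 (n = 5). DKO SD stood at 10.92 ± 0.13 (n = 4), CSB KD at 10.90 ± 0.31 (n = 5), INDY SD at 10.86 ± 0.09 (n = 6) and WT KD at 10.86 ± 0.21 (n = 4). CSB SD followed at 10.78 ± 0.12 (n = 6) and INDY KD at 10.72 ± 0.24 (n = 6). Each group in this order differed from the next by less than the SD of 1 of the 2. All 4 DKO SD libraries (10.79 to 11.10) and all 6 INDY SD libraries (10.76 to 10.96) lay above all 4 WT SD libraries (10.47 to 10.74). As a percentage of the summed values of a library, the members overlapped between these groups, with 0.413% to 0.481% in WT SD, 0.450% to 0.540% in DKO SD and 0.454% to 0.517% in INDY SD. On that measure INDY KD had the lowest mean, 0.441%, and WT SD the next, 0.454%.

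**Figure D1:**
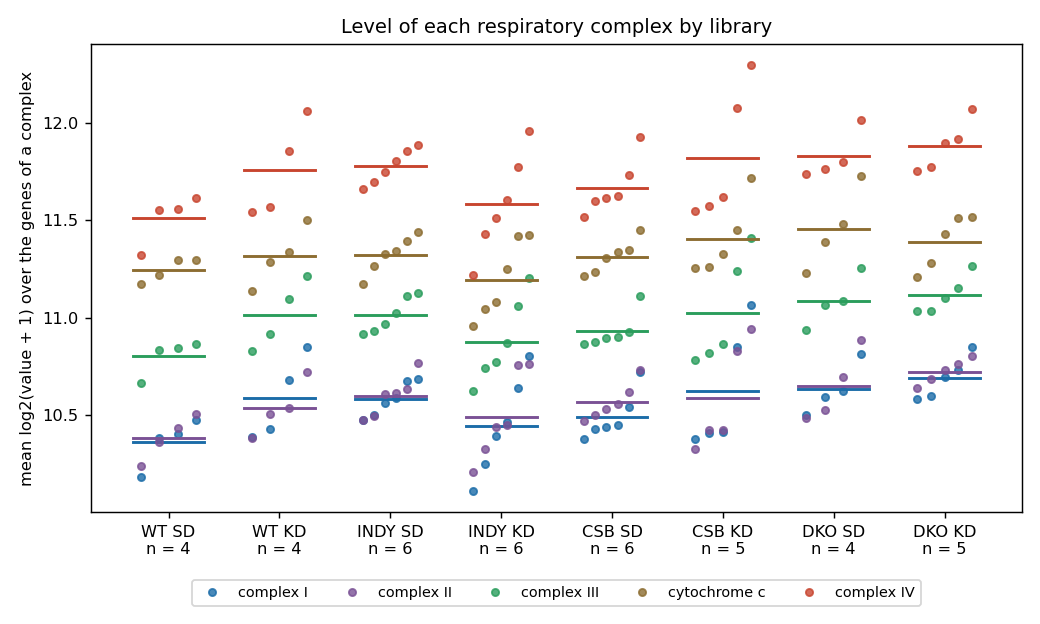
Mean log2(value + 1) over the genes of each complex (vertical axis) in every library, by group (horizontal axis); points are libraries, sorted by value within a group, and lines are group means. The means of complexes I, II, III and IV are lowest in WT SD and that of cytochrome c in INDY KD, and the lowest INDY KD library lies below all WT SD libraries in every complex.

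On SD, the members stood higher in DKO than in WT as a block. The difference was above 0 for 59 of 59, with a median of 0.28, while the median over all tested genes was 0.00. No member was called, against 5.92% of all tested genes (3.1% higher and 2.82% lower), and the smallest adjusted p was 0.0504. At an unadjusted p under 0.05, 32 members were higher and 0 lower, against 15.1% of all genes higher. In 25 members all 4 DKO SD values lay above all 4 WT SD values, against 9.28% of all genes.

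In complex I the median difference was 0.27. There, 19 of 36 genes were higher at an unadjusted p under 0.05, against 15.1% of all genes. Ndufa12, an accessory subunit of the peripheral arm, had values of 1084, 1189, 1309 and 1347 in WT SD and 1427, 1680, 1828 and 1843 in DKO SD. The groups did not overlap, and the difference was 0.46 (SE 0.16, limma adjusted p = 0.0649). Ndufb6, an accessory subunit of the membrane arm, also did not overlap, with 671 to 917 in WT SD and 1001.2 to 1134 in DKO SD. Ndufs1 and Ndufa4 had the smallest differences of the set. Ndufs1 read 4435, 4587, 4666 and 4969 in WT SD and 4399, 4713, 5296 and 5513 in DKO SD. These groups overlapped, and the difference of 0.09 had a 95% interval from -0.06 to 0.24. Ndufa4 had a difference of 0.11 (SE 0.17), which was -0.02 without DKO SD 36.

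In complex II, Sdhb, which carries the iron-sulphur clusters, had 1588, 1808, 2133 and 2194 in WT SD and 2280, 2390, 2571 and 2697 in DKO SD. The groups did not overlap, with a difference of 0.37 (SE 0.16, limma adjusted p = 0.102). Sdhc, a membrane anchor, overlapped between the groups, and its difference was 0.17 (SE 0.13).

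Complex III held the member with the largest difference. Uqcr11, a small accessory subunit, had 1000.9, 1180, 1292 and 1470 in WT SD and 1525, 1649, 1810 and 1853 in DKO SD. All DKO values were above all WT values, and the difference of 0.48 (SE 0.15, limma adjusted p = 0.0504) corresponds to 1.39-fold. Uqcrq, another small accessory subunit, was chosen here after its values were seen. It read 575, 650.0, 677 and 702 in WT SD and 792, 876, 887 and 996 in DKO SD, again without overlap, for a difference of 0.45 (SE 0.14, limma adjusted p = 0.0525). Uqcrfs1, the Rieske iron-sulphur protein of the catalytic core, had a difference of 0.15 (SE 0.11) with overlapping groups, and Uqcrb, which lies near the ubiquinone site, one of 0.25 (SE 0.13). Cycs had 2309, 2384, 2509 and 2516 in WT SD and 2401, 2678, 2852 and 3382 in DKO SD, with 3 of 4 DKO values above every WT value and a difference of 0.21 (SE 0.11).

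Complex IV had the highest median difference of the complexes, 0.34. In 7 of its 10 genes the groups did not overlap, with DKO higher, against 9.28% of all genes. Cox4i1 had 5156, 6249, 6557 and 7099 in WT SD and 7877, 7978, 8007 and 8472 in DKO SD. The groups were separate, with a difference of 0.38 (SE 0.16, limma adjusted p = 0.0970). For Cox6a1, chosen after its values were seen, the values were 1825, 2152, 2196 and 2230 against 2604, 2609, 2779 and 2843, and the difference was 0.37 (SE 0.12, limma adjusted p = 0.0565).

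The number of members past the unadjusted threshold depended on single libraries. It fell from 32 to 10 without WT SD 41 and to 12 without DKO SD 36, and it was 37 without DKO SD 1. Without the 12 libraries of high forebrain level it was 41, with a median difference of 0.36. DKO SD is then represented by libraries 34 and 36 alone, and DKO SD 36 had the group's highest value for 49 members. The count was 16 when libraries were rescaled to equal sums of the tested genes without mitochondrial and Rn7s genes. That scaling moved the median of all genes to -0.06 and the members' median to 0.21.

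**Figure D2:**
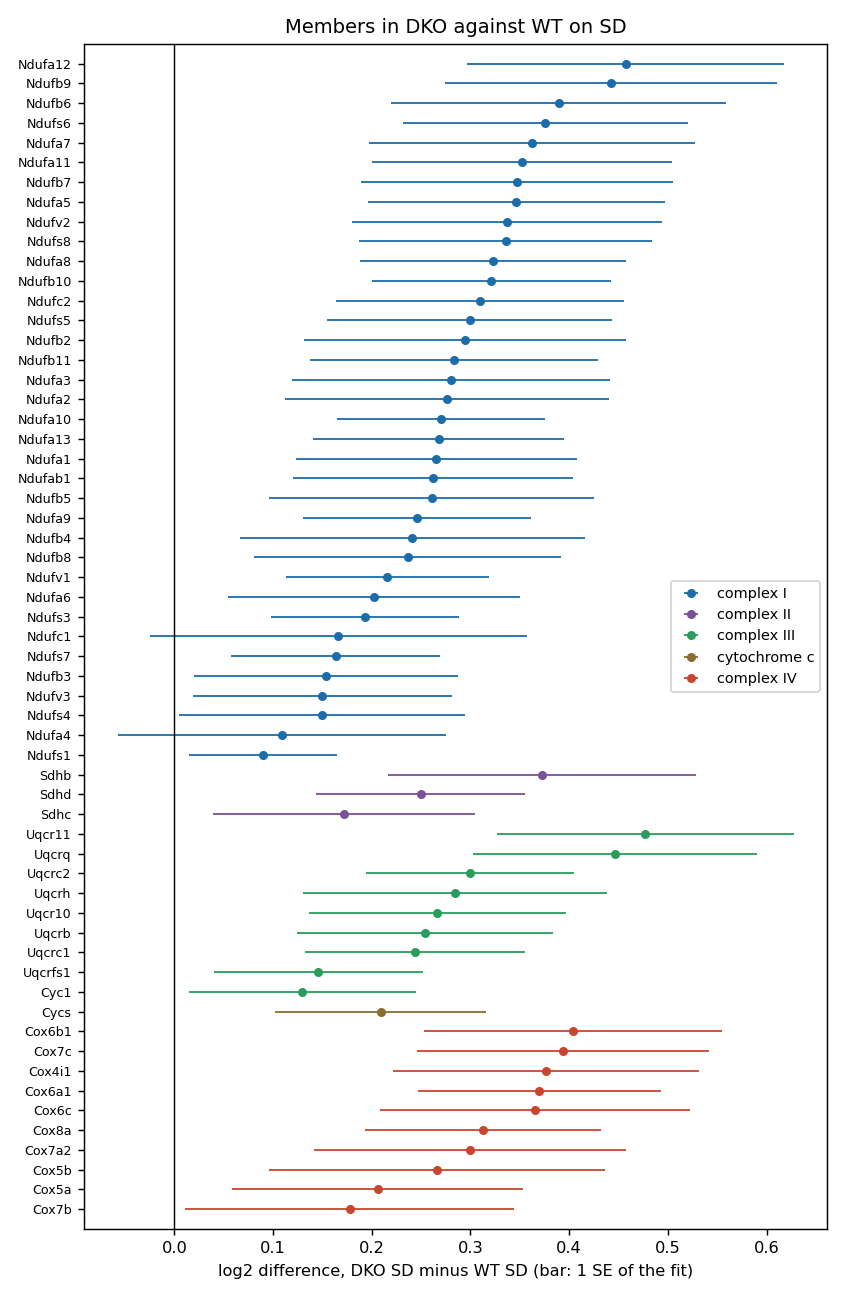
log2 difference between DKO and WT on SD (horizontal axis) for each of the 59 members (vertical axis), coloured by complex; points are the limma estimates and bars 1 SE. All 59 points lie above 0, from 0.09 for Ndufs1 to 0.48 for Uqcr11.

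The comparisons of INDY, CSB and DKO with WT on SD share the same 4 WT SD libraries, and so does the comparison of diets in WT. They are therefore given side by side and not as independent results. In INDY against WT on SD the difference was above 0 for 58 of 59 members, with a median of 0.22. None of the 59 was called, against 0.00468% of all genes. At an unadjusted p under 0.05, 18 members were higher, against 7.97% of all genes, and 16 did not overlap, against 2.74%. Without WT SD 41 the count of 18 became 1, and in a fit of only these 2 groups it became 41. Without the libraries of high forebrain level it was 10, with a median of 0.20.

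In INDY, the largest differences were those of Ndufb6 at 0.40 (SE 0.16) and of Ndufa11, an accessory subunit of the membrane arm, at 0.36 (SE 0.14). Ndufa11 lay between 761 and 981 in WT SD and ran from 1030 through a median of 1158 to 1220 in INDY SD. The groups did not overlap, and the limma adjusted p was 0.319. Ndufs1 differed by 0.04 (SE 0.07) and Cycs by 0.08 (SE 0.10). Uqcrb was the only member with a difference under 0, at -0.01 (SE 0.12).

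In CSB against WT on SD the median difference was 0.15, and 57 of 59 members were above 0. No member was called, against 0.136% of all genes, and at an unadjusted p under 0.05 the count was 0, against 4.23% of all genes higher. Ndufa12 had the largest difference, 0.29 (SE 0.15, limma adjusted p = 0.612), and it was the only member whose groups did not overlap, against 1.59% of all genes. Ndufb3, a small accessory subunit of the membrane arm, differed by -0.0025 (SE 0.12) and Uqcrb by -0.03 (SE 0.12). In DKO against CSB on SD the median was 0.15 and 0 members were called, against 0.00468% of all genes. There, 3 members were higher at an unadjusted p under 0.05 (Cox8a, Uqcrb and Uqcrq), against 7.47% of all genes. In DKO against INDY on SD the median was 0.05, 0 members were called, against 0.0608% (0.0468% higher), and Uqcrb alone passed that threshold, at 0.27, against 2.87%. In DKO against CSB on KD the median was 0.08, with 0 members called, against 0.0281%. There, 0 members passed the unadjusted threshold, against 1.02% of all genes higher and 0.707% lower. A p above the threshold does not show that the groups are alike.

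On KD, the members' median difference was -0.14 in INDY, 0.03 in CSB and 0.11 in DKO against WT, with 1, 36 and 56 of 59 members above 0. These 3 comparisons share the 4 WT KD libraries. limma called 0 members, against 0.00936% of all genes in INDY, 0.00468% in CSB and 0.00936% in DKO. At an unadjusted p under 0.05, Uqcrb was lower in INDY (-0.24), no member passed in CSB, and Uqcrfs1 was higher in DKO (0.21). Over all genes, 2.3% were lower in INDY, 3.88% higher and 4.35% lower in CSB, and 3.1% higher in DKO. The direction in CSB changed with single libraries: the median was -0.08 without CSB KD 13 and 0.11 without WT KD 28. Without the libraries of high forebrain level WT KD is represented by library 28 alone, and the medians were then -0.45, -0.22 and -0.18.

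Between the 2 genotypes without Slc13a5 RNA, DKO stood above INDY on KD. The difference was above 0 for 59 of 59 members, with a median of 0.25, and 32 were higher at an unadjusted p under 0.05, against 4.42% of all genes. No member was called, against 0.0983% (0.0842% higher), and the smallest adjusted p was 0.300, for Cox6b1. Cox6b1, an accessory subunit on the intermembrane side of complex IV, ran from 2379 through a median of 3319 to 4186 in INDY KD and had 3989, 4040, 4358, 4652 and 5264 in DKO KD. The groups overlapped, and the difference was 0.45 (SE 0.13). Only Ndufs7, a core complex I subunit, did not overlap, against 0.417% of all genes. Leaving out INDY KD 20 took the count of 32 to 10, DKO KD 2 to 13 and INDY KD 22 to 55. It was 35 when the library labelled DKO KD 23 was left out. Without the libraries of high forebrain level it was 34, with a median of 0.28. This comparison was named after results of these data were known.

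KD against SD gave differences of opposite sign in WT and INDY. In WT all 59 members were above 0, with a median of 0.24, and in INDY all 59 were below 0, with a median of -0.14. No member was called in either, against 0.0% of all genes in both. At an unadjusted p under 0.05, 10 members were higher in WT, against 7.68% of all genes, and 4 were lower in INDY (Cox5b, Cox6b1, Ndufv3 and Cox8a), against 2.05%. In WT, Ndufb10, Uqcrc2, Uqcrq and Cox6a1 did not overlap, against 5.13% of all genes. Ndufb6 and Uqcr11 had the largest differences in WT, at 0.36 (SE 0.17) and 0.36 (SE 0.15), and Ndufs1 and Sdhc the smallest, at 0.02 (SE 0.07) and 0.03 (SE 0.13). The WT count of 10 became 0 without WT KD 28, 2 without the library labelled WT KD 25 and 30 without WT KD 7, and the INDY count of 4 became 0 without INDY KD 20 and 18 without INDY KD 22. Without the libraries of high forebrain level WT KD is represented by library 28 alone, and the median in WT was then 0.50. In INDY the median was -0.16 without them, with a count of 4.

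The difference between these diet responses was tested directly. INDY minus WT was below 0 for all 59 members, with a median of -0.37. Calls among the members were 0, against 0.014% of all genes, and 31 were lower at an unadjusted p under 0.05, against 7.68%. Ndufa11 was the furthest from 0, at -0.58 (SE 0.20, limma adjusted p = 0.240), and Ndufs1 the nearest, at -0.12 (SE 0.10). The count of 31 became 11 without WT KD 28, 14 without the library labelled WT KD 25 and 47 without INDY KD 22. Without the libraries of high forebrain level, which leaves WT KD 28 alone in its group, the median was -0.66. The medians of the diet response of CSB and of DKO minus that of WT were -0.11 and -0.18, with 0 members called, against 0.0% of all genes in both, and 0 past the unadjusted threshold. Of all genes, 3.23% were higher and 3.17% lower at the unadjusted threshold for CSB, and 8.66% and 10% for DKO. Within CSB and DKO, KD against SD had medians of 0.12 and 0.05, with 3 and 0 members higher at an unadjusted p under 0.05, against 1.61% and 4.28% of all genes. Without the libraries of high forebrain level the median in DKO was -0.04, with DKO SD represented by libraries 34 and 36 alone. The 3 in CSB were Ndufs3, Cox8a and Ndufs4. Over all genotypes the median was 0.06, with 1 member higher at that threshold, against 1.21% of all genes. In these 3 comparisons 0 members were called, against 0.0%, 0.00468% and 0.0% of all genes.

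**Figure D3:**
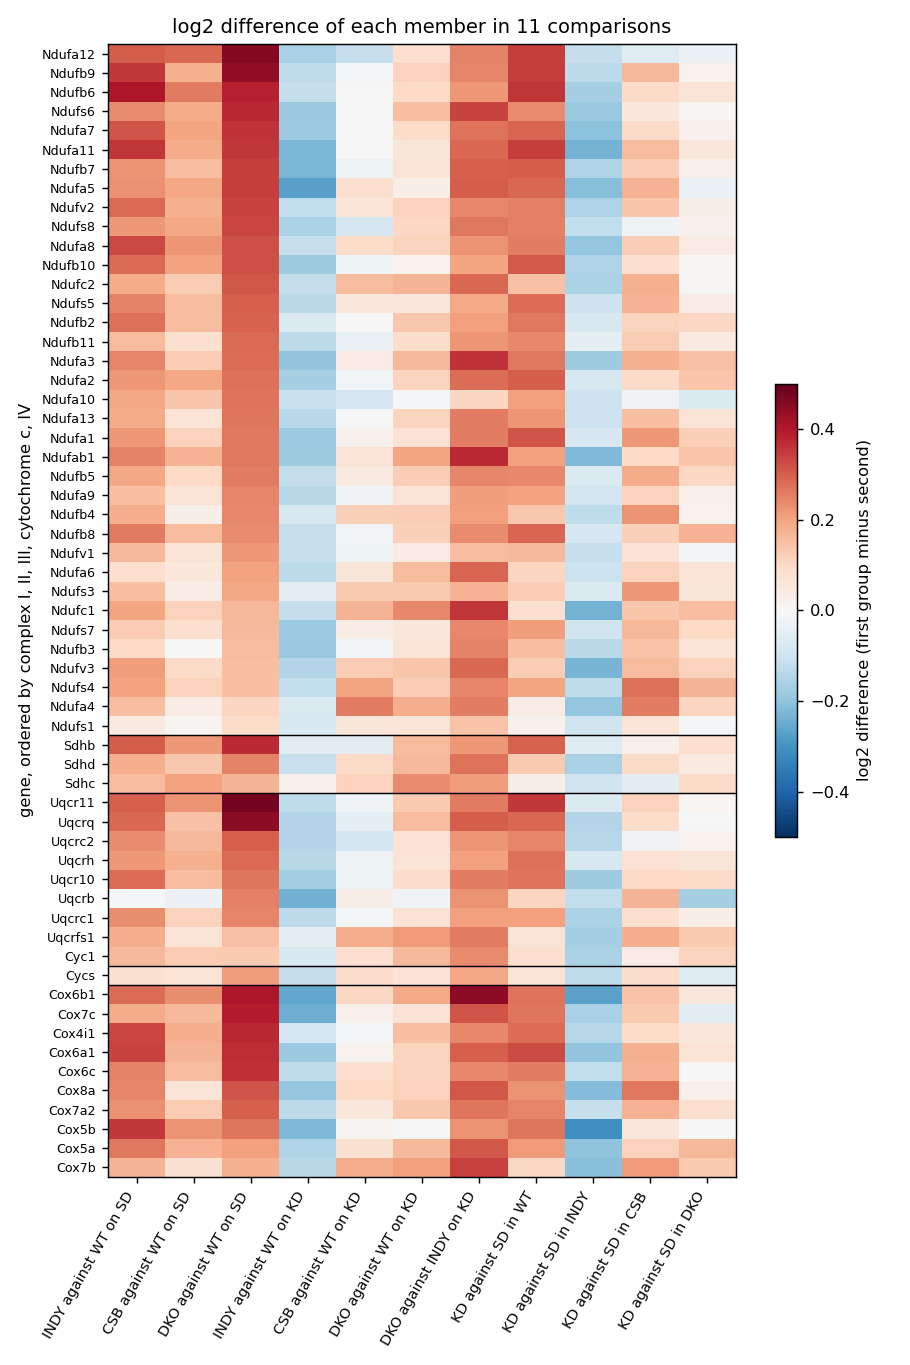
log2 difference of each member (rows, ordered by complex and separated by lines) in 11 comparisons (columns); red is higher in the first-named group and blue lower, on a scale from -0.5 to 0.5. The columns of DKO against WT on SD, DKO against INDY on KD and KD against SD in WT are red for all 59 members, and KD against SD in INDY is blue for all 59.

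Within a group, the members moved together from library to library. WT SD 41 had the lowest value of its group for 51 of 59 members, against 30.5% of all tested genes. WT KD 28 and CSB KD 13 each had the highest value of their group for 56 members, against 28.1% and 27% of all genes. INDY KD 22 had the highest for 54 and INDY KD 20 the lowest for 48, against 21.5% and 28% of all genes. DKO SD 36 had the highest for 49, against 28.7%. The levels of cytosolic ribosomal protein genes were also lowest in WT SD 41 and INDY KD 20 and highest in CSB KD 13, WT KD 28 and INDY KD 22 within their groups. The part of these libraries' shared shift in the members' differences was not tested.

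Other genes of the respiratory chain were described from lists that were also chosen with earlier results known. Of 18 ATP synthase genes, 0 were called by limma in DKO against WT on SD, against 5.92% of all tested genes. At an unadjusted p under 0.05, 7 of them were higher, against 15.1% of all genes, and their median difference was 0.26. Sdha, Ndufb1-ps and Cox7a2l, which are outside the member list, had differences of 0.09, 0.50 and 0.36, and limma called none of them. Of the 13 subunits encoded in mitochondrial DNA, 4 rose in DKO on SD and 0 fell, against 3.1% of all genes called higher and 2.82% lower. The complex I subunit gene mt-Nd3 lay between 8139 and 14124 in WT SD and between 23567 and 44080 in DKO SD, without overlap, a difference of 1.47 (SE 0.26, limma adjusted p = 0.00623). The cytochrome b gene mt-Cytb of complex III differed by 0.51 and mt-Nd1 by 0.49. None of the 13 was called in INDY or CSB against WT on SD, against 0.00468% and 0.136% of all genes.

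Among 47 tested assembly factors, 2 rose in DKO on SD and 0 fell, with a median of 0.19. That share is close to the 3.1% of all tested genes that were called higher, so it is no result about assembly factors as a group. Cox17, the copper chaperone of complex IV, had 523 to 637 in WT SD and 714 to 948 in DKO SD, a difference of 0.46 (SE 0.13, limma adjusted p = 0.0428). Coa3, which helps build complex IV around a mitochondrially encoded subunit, differed by 0.47 (SE 0.14, limma adjusted p = 0.0478). Of 13 genes of mitochondrial mass, Tomm20 and Vdac1 rose by 0.50 and 0.29, against 3.1% of all genes called higher. Tomm20 is an import receptor and Vdac1 the outer membrane channel. Of 13 regulators of respiratory genes, 0 rose, against the same 3.1%. Ppargc1b, a transcriptional coactivator among them, fell by 0.81 (SE 0.25, limma adjusted p = 0.0493), against 2.82% of all genes called lower. These calls share the dependence on single libraries: limma called 1265 genes in this comparison, 12 without WT SD 41 and 101 without DKO SD 1.

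The levels of ribosomal protein genes were also compared. Cytosolic ribosomal protein genes had a mean log2 level of 10.94 ± 0.08 (SD over 4 libraries) in WT SD against 11.37 ± 0.09 over 4 libraries in DKO SD. In that comparison 17 of 79 rose and 0 fell, against 3.1% of all genes called higher and 2.82% lower. Of 75 mitochondrial ribosomal protein genes 4 rose and 0 fell, with a median difference of 0.24, and that share too is near the 3.1% of all genes called higher. The part of either in the members' differences was not tested.

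**Figure D4:**
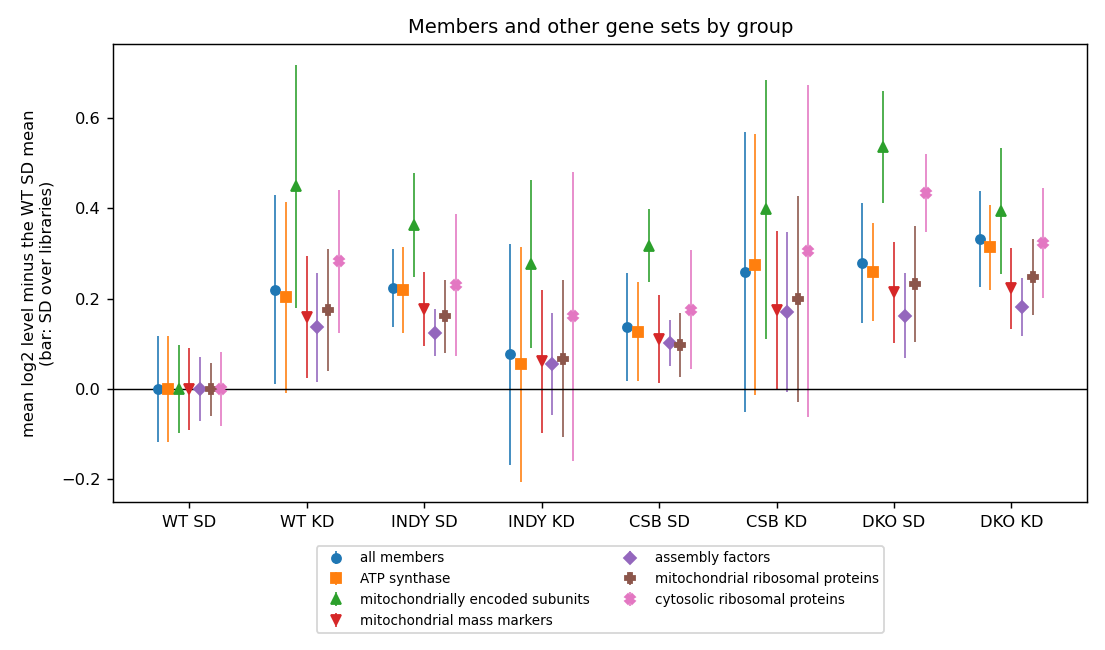
Mean log2 level of 7 gene sets in each group minus the same set's mean in WT SD (vertical axis), by group (horizontal axis); points are means over libraries and bars the SD. The members, ATP synthase and the other sets lie above their WT SD mean in every other group, and the subunits encoded in mitochondrial DNA lie highest in each of them.

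Transcript length moved with the differences as well. The members are short, with a median transcript of 865 bases. Among protein-coding genes other than the members and ribosomal proteins, the median difference between DKO and WT on SD was 0.25 for transcripts of up to 1000 bases, 0.17 above that and up to 2000 bases, 0.07 above that and up to 4000 bases and -0.04 above 4000 bases. The 34 members of up to 1000 bases had a median of 0.30, and the 19 in the next class one of 0.25. In INDY against WT on SD the same length classes gave 0.15 and 0.12 for other genes and 0.24 and 0.20 for members, and in DKO against INDY on KD 0.18 and 0.10 for other genes and 0.26 and 0.24 for members. These values use 1 principal transcript per gene. That measure replaced the median length of a gene's coding transcripts, which gave 651 bases for Ndufs1 where the principal transcript has 2661, and the change was made after the first values had been seen. With the median length, other genes of up to 1000 bases had a median of 0.16 in DKO against WT on SD, 0.11 in INDY against WT on SD and 0.10 in DKO against INDY on KD, while the 47 members in that class had 0.28, 0.23 and 0.25. In 2 of the comparisons not plotted, members of up to 1000 bases lay below the other genes of that length although both medians were above 0. These were DKO against INDY on SD, with 0.05 against 0.09, and CSB against WT on KD, with 0.02 against 0.04, both by principal transcript. The distance between members and other short genes thus depends on the comparison and the length measure, and the part of length in the members' differences was not tested further.

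**Figure D5:**
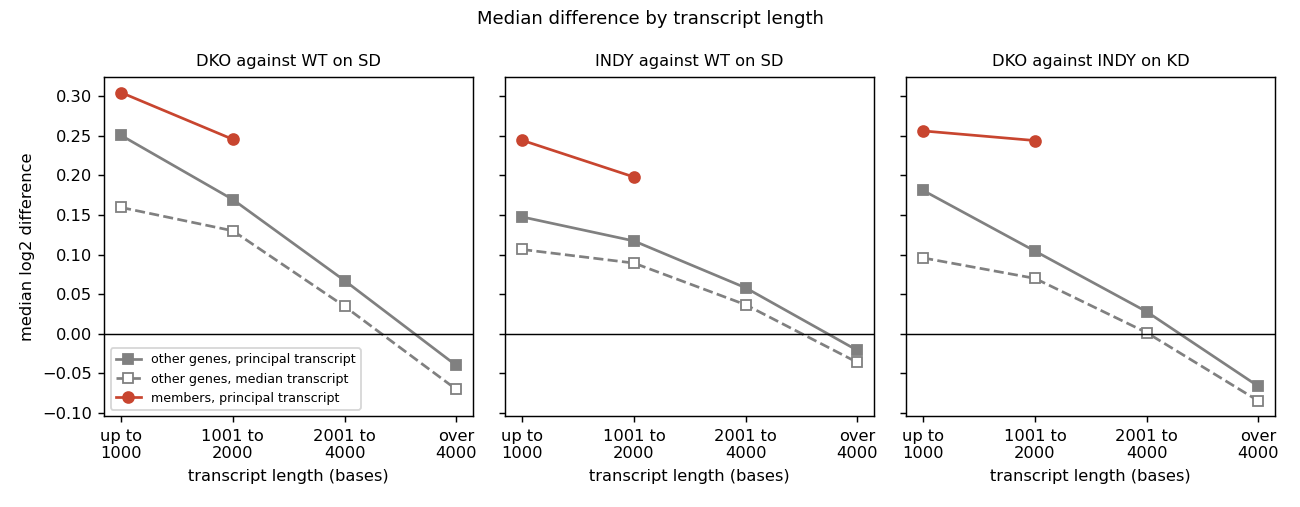
Median log2 difference (vertical axis) by class of transcript length in bases (horizontal axis) in 3 comparisons; grey squares are protein-coding genes other than members and ribosomal proteins, by principal transcript (filled) and by median transcript (open), and red circles are members in the classes that hold at least 10 of them. In these 3 comparisons, whose median member differences are among the largest, the differences fall with length among other genes and the members lie above them in both classes.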

How the data were processed

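The deposited table holds 1 signal value per gene and library for 40 libraries of trizol-extracted, ribosomal-RNA-depleted cerebellar RNA. The values are estimated counts normalised by the authors. The submitters' processing notes name Bowtie2, Salmon, DESeq2 and mm9, without versions or order, and library depth is unknown. Values were transformed to log2(value + 1). Genes with at least 10 in at least 4 libraries were kept (21367 of 54331). They were fitted with limma 3.58.1 (R 4.3.3), with trend and robust variance and 1 mean per group, and Benjamini-Hochberg adjustment over all tested genes. The fit was also run on simulated data, and the outcome of that run is not reported here.

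Genes were matched by identifier to GENCODE M21 on GRCm38 (54097 of 54331), whose build differs from mm9. Coordinates and lengths are from GRCm38. Copies were searched with blastn 2.17.0. Of the 7 motifs, all were searched on both strands.

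Named members are the 2 highest and 2 lowest in each of 4 comparisons plus Ndufs1, Sdhb, Uqcrfs1, Cycs and Cox4i1. Others are said to be chosen after their values were seen, and Cox6b1, Ndufs7 and members listed by a count are of that kind. The members and lists were chosen with earlier results of these data known. Alternatives tried were other pseudocounts, filters, scalings, sample sets and leaving out libraries.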

Additional observations from a re-analysis of the deposited data

Results flagged for a closer look

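In groups of 4 to 6 libraries, 6 of 144 sets of values (levels of each complex and of named members) had 1 library far from the others, where chance gives about 1 in 20. CSB SD 26 stood above the other CSB SD libraries in the mean log2 level of complex III, at 11.11 against 10.86 to 10.93. In the same library Ndufa4 was at 4136 against 2852 to 3296, Uqcrb at 2210 against 1853 to 1983, and Uqcrfs1 at 2310 against 1950 to 2033. WT SD 41 stood below the other WT SD libraries in complex III, at 10.66 against 10.84 to 10.87. DKO SD 1 had Ndufa11 at 936 against 1187 to 1225 in the other DKO SD libraries.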

How the results depend on the processing

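No paired analysis was possible because the library numbers are unique and no 2 groups share one. The count of called members was recomputed 368 times and was not 0 in 1 case. That was DKO against WT on SD in a fit of only the groups compared, with 2 called, Ndufb9 (0.44, limma adjusted p = 0.048) and Cox7c (0.39, limma adjusted p = 0.0496). That fit called 694 genes, against 1265. None of the 871 recomputed values of named members was called. Without the libraries of high forebrain level, an alternative chosen after seeing the data, the members' median moved by more than 0.182, the SD of the member mean within groups, in 7 comparisons, which is 7 of 368 recomputed medians. It went to -0.45, -0.22 and -0.18 for INDY, CSB and DKO against WT on KD, to 0.50 for KD against SD in WT, and to -0.66, -0.35 and -0.53 for the diet responses of INDY, CSB and DKO minus WT. All 7 comparisons use WT KD, which is then represented by library 28 alone. Smaller moves are not counted there, and the median of CSB against WT on KD (0.03) was below 0 in 6 of 16 alternatives, at -0.08 without CSB KD 13. KD against SD in DKO went to -0.04 without the libraries of high forebrain level, and DKO against INDY on SD to -1.3e-05 without DKO SD 36.

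Directions near 0 changed when single libraries were left out. In CSB against WT on SD, Ndufs1 ran from -0.011 to 0.043 (and -0.0044 at equal sums), Ndufa4 from -0.029 to 0.088, Uqcrb from -0.074 to 0.029 and Ndufb3 from -0.067 to 0.042. In KD against SD in WT, Ndufs1 ran from -0.0032 to 0.052, Ndufa4 from -0.059 to 0.120 and Sdhc from -0.026 to 0.090. Ndufa4 in DKO against WT on SD ran from -0.025 to 0.199. Uqcrb in INDY against WT on SD ran from -0.057 to 0.047, and was 0.0027 without the libraries of high forebrain level. The cause was not tested. The number of libraries per group, 4 to 6, and the unknown depth limit the precision of every value.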
